A study of Mus musculus with 24 samples.

Results

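Lysosome genes and their TFEB-family regulators were followed in mouse macrophages exposed to a sphingomyelin or to a bacterial lipopolysaccharide. The genes were 41, chosen by name out of 55401 in the count table: 3 regulators (Tfeb, Tfe3 and Mitf), 8 genes of lysosomal membrane and channel proteins, 9 cathepsins, 10 other hydrolases and their partners, and 11 genes of the proton pump. Of these, 40 had enough reads to be tested among 11717 genes. The exception, Atp6v0c, the proteolipid subunit of the pump's membrane sector, had 126 reads over all 24 libraries. Its count is uncertain besides, since the genome holds processed copies of the gene.

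Lysosomes are acidic compartments in which cathepsins and other hydrolases digest protein, lipid and glycan, and macrophages, which engulf microbes and dead cells, are rich in them. A vacuolar-type proton pump, made of a membrane sector (V0) and a catalytic sector (V1), keeps the lumen acidic. TFEB, TFE3 and MITF are related basic helix-loop-helix transcription factors that bind an E-box-like CLEAR element, with CACGTG at its core, upstream of many lysosome genes. Their activity depends to a large extent on phosphorylation by mTORC1 and on their place in the cell, which RNA counts do not measure.

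The cells were bone marrow-derived macrophages of wild-type C57BL/6J mice, differentiated with medium conditioned by L929 cells, a fibroblast line that secretes the macrophage growth factor M-CSF. There were 6 groups of 4 libraries: S14 for 18 h, LPS for 18 h, untreated for 18 h, S14 for 3 h, LPS for 3 h and untreated for 3 h. S14 is the labels' name for sphingomyelin d18:1/14:0 and was given at 30 µM. LPS, the lipopolysaccharide ligand of the receptor TLR4, was given at 100 ng/mL. The labels name no vehicle for the untreated cells, whose columns are headed Veh. Per the labels, medium for the stimulations was listed without the L929 supplement unless stated otherwise. The series' design text gives n = 4 for the mice, but nothing ties a library to its own mouse or culture, so p-values measure the spread between these libraries, which may be technical.

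RNA was counted from the 3′ end of transcripts (QuantSeq), with 3334182 to 6350251 gene reads in a library. Levels are given as CPM, read counts scaled to a common library size, with the 4 values in replicate order and means ± SD (n = 4). A gene was called higher or lower at an adjusted p under 0.05 in edgeR's quasi-likelihood test over all 11717 genes (Benjamini-Hochberg), and values in brackets after levels are log2 fold changes ± SE. All 7 macrophage markers had reads in every group, summing to 30230 to 31310 CPM with S14 at 18 h, 14160 to 22560 CPM with LPS at 18 h and 29700 to 43070 CPM in untreated cells at 18 h. Neutrophil markers summed to 40.73 to 50.36 CPM with LPS and 1.581 to 5.613 CPM in untreated cells at 18 h, and fibroblast markers to 10.31 to 17.46 CPM and 0 to 1.575 CPM. S100a8, a neutrophil marker also made by stimulated macrophages, averaged 5.18 CPM with S14, 45.5 CPM with LPS and 1.95 CPM in untreated cells at 18 h. Dcn, a fibroblast marker, averaged 0.754, 13.8 and 0.364 CPM in the same order. S100a8 and Dcn made up most of these sums with LPS. S100a9, another neutrophil marker, averaged 0.459 CPM with LPS and 0.777 CPM in untreated cells at 18 h. With LPS at 18 h Ly6g, Retnlg, Camp and Ngp had 1, 0, 12 and 0 reads. Col1a1, Col1a2, Col3a1 and Pdgfra had 1, 0, 0 and 0. The part of such cells in the results was not tested. Untreated 18 h replicate 4 stood apart, with an SD of 0.518 for its log2 deviations from its group, against 0.327 to 0.345 in the other untreated 18 h libraries. In bulk RNA, fewer cells of a type and less RNA per cell cannot be told apart.

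Changes are relative to the bulk of each library's transcripts. Scaling by the added control RNAs (ERCC and SIRV, 705 to 2588 reads in a library) moved the log2 median over all genes. For S14 it moved by -0.967 at 18 h and 0.114 at 3 h. For LPS it moved by -0.644 at 18 h and 0.343 at 3 h. The sources used here do not state how much control RNA a sample got. Without untreated 18 h replicate 4, whose control RNAs took 0.0134% of reads, the shifts for S14 were -0.481 at 18 h and 0.116 at 3 h, and those for LPS -0.163 and 0.34.

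The CACGTG core was looked for on both strands of RefSeq promoters (GRCm38.p6, 250 bases before to 50 bases after a gene's start). A promoter was listed for 34 of the 41 genes, and 12 of these (35.3%) held CACGTG, against 2187 of 27025 genes in all (8.09%) and 1082 of 8804 tested genes (12.3%). The longer TCACGTG, which contains the core, was in 11 of the 34 (32.4%), against 1160 of 27025 genes (4.29%) and 653 of 8804 tested genes (7.42%). The core was in 2 of 8 membrane and channel genes, 3 of 7 cathepsins, 4 of 9 other hydrolases and partners, 3 of 7 pump genes and 0 of 3 regulators. A match is only a description of these letters. The 6 stretches below show cores in their context, from genes of 4 roles. They come from RefSeq, leave out every exon annotated in GENCODE M21, and have each CACGTG in capitals. Lamp1 (chr8:13159041-13159160, plus strand) holds 4 cores within 120 bases, Mcoln1 (chr8:3500337-3500456, plus) 1 of the 2 in its promoter, Ctsd (chr7:142388039-142388077, minus) 1 of 2 in 39 bases, Gaa (chr11:119267767-119267886, plus) 1, Atp6v0b (chr4:117887334-117887453, minus) 2 and Atp6v1a (chr16:44139306-44139425, minus) 1.
Lamp1: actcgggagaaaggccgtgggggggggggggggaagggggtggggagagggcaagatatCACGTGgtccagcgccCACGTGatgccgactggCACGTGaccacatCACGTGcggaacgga
Mcoln1: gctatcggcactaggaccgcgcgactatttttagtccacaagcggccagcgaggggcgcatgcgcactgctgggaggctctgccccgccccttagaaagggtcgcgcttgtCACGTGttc
Ctsd: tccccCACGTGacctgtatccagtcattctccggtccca
Gaa: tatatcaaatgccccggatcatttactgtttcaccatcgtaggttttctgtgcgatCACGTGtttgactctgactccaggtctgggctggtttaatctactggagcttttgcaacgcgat
Atp6v0b: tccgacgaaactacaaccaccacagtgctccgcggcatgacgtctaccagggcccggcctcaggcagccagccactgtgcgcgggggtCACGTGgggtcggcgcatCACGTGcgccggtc
Atp6v1a: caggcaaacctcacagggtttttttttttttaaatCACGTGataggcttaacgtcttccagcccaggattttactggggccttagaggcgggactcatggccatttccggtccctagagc

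Over all 40 tested genes, S14 moved few and LPS many. With S14, 10 genes rose and 3 fell at 18 h, when 24.3% of all tested genes were called, 12.6% higher and 11.6% lower. At 3 h 3 rose and 4 fell, beside 15.2% of all called, 9.05% higher and 6.2% lower. The medians of the 40 were 0.03 at 18 h and -0.08 at 3 h, against -0.02 and -0.03 for all genes. With LPS, 13 rose and 17 fell at 18 h, beside 55.6% of all called, 27.3% higher and 28.3% lower. At 3 h 9 rose and 11 fell, beside 55.5% of all called, 25.3% higher and 30.2% lower. Their medians were -0.05 at both times, against -0.04 at 18 h and -0.11 at 3 h for all genes. Under control-RNA scaling S14 raised 0 and lowered 31 at 18 h (0 and 5 without untreated replicate 4) and changed 0 at 3 h (1 and 1 without it). LPS then raised 1 at 18 h (6 without it) and 5 at 3 h (12 without it). At 18 h LPS lowered 1 of 3 regulators, 3 of 8 membrane and channel genes and 2 of 9 cathepsins. It also lowered 7 of 10 other hydrolases and partners and 5 of 10 pump genes. Without untreated replicate 4 these lowered counts were 1, 1, 1, 5 and 2. At 3 h LPS lowered 1 regulator and 1 other hydrolase, with or without that library. At each time the S14 and LPS comparisons share the untreated libraries.

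**Figure D1:**
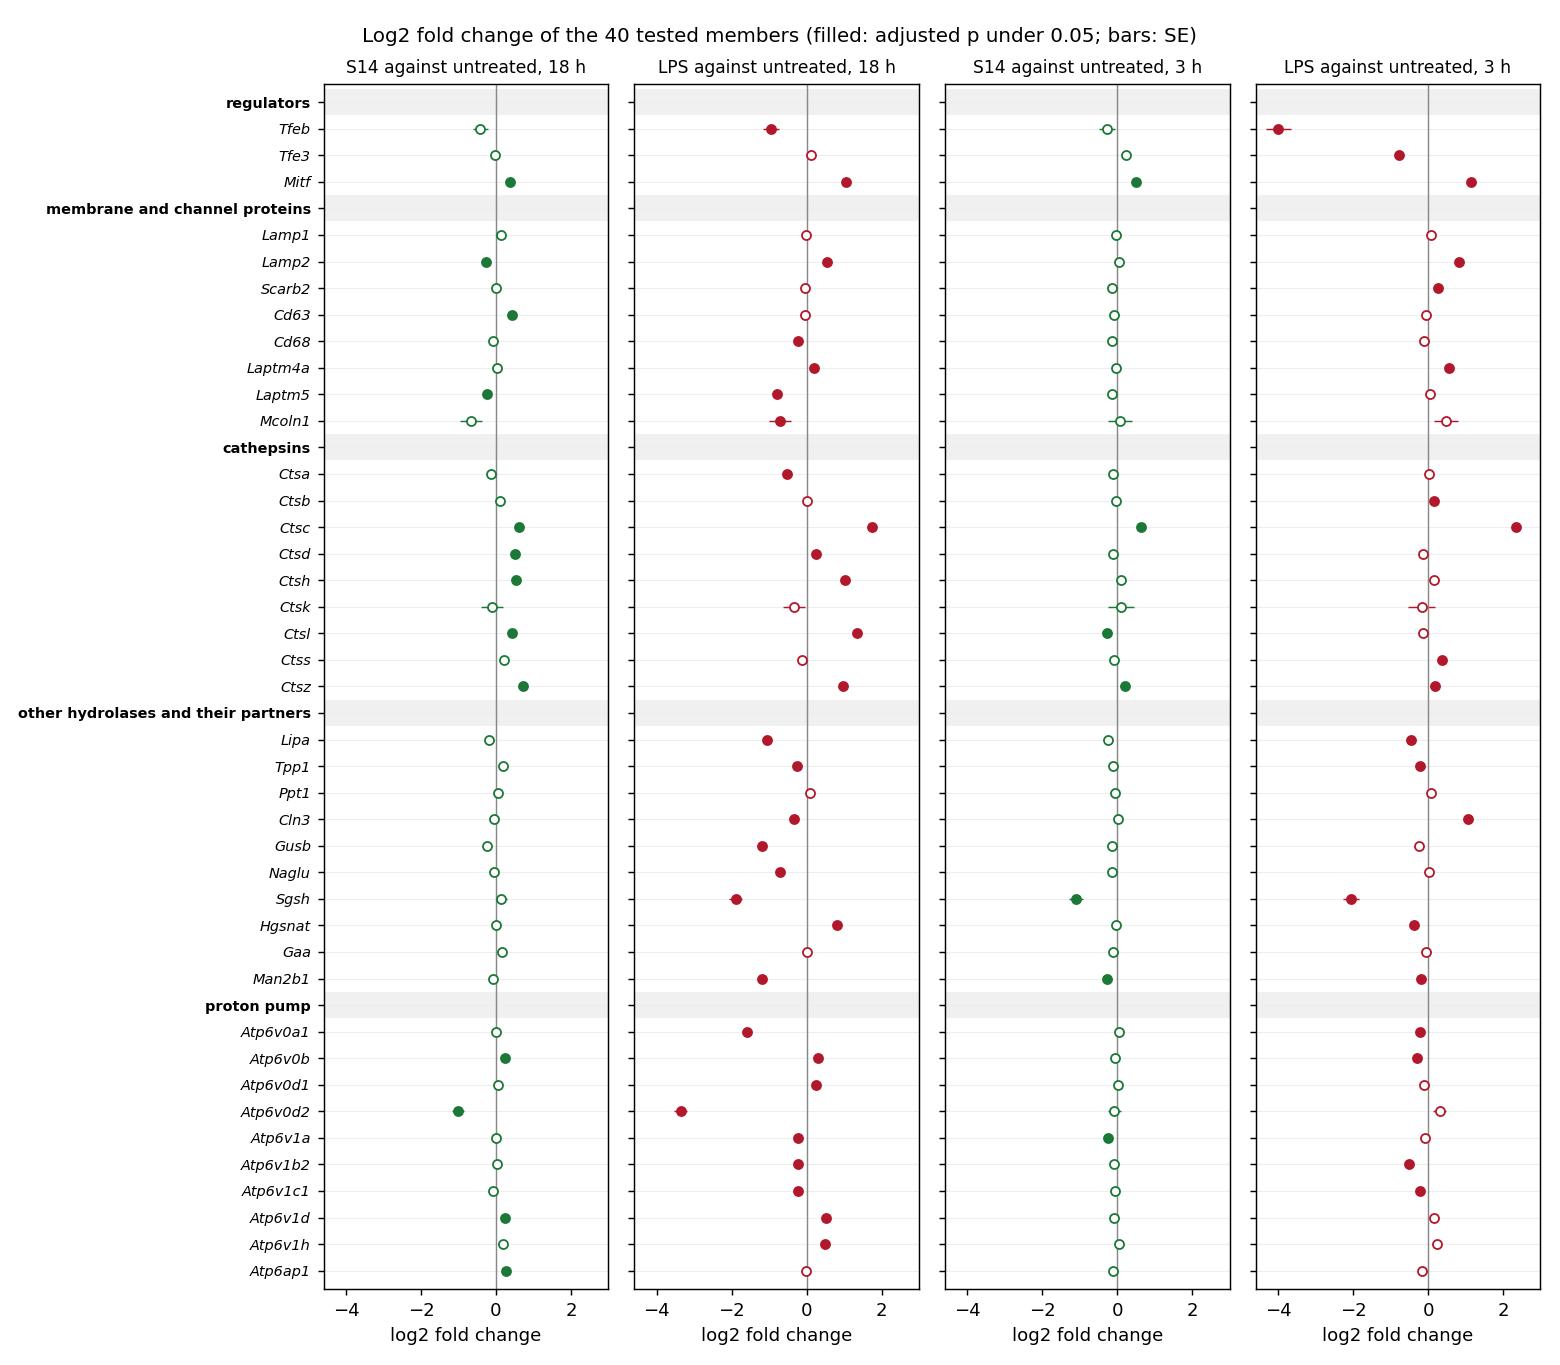
Log2 fold change (horizontal axis) of the 40 tested genes, in rows by role, for S14 and LPS against untreated cells at 18 h and at 3 h, relative to the scaled library. Points are the fitted values, bars their SE, and filled points passed an adjusted p of 0.05 (S14 13 at 18 h and 7 at 3 h; LPS 30 at 18 h and 20 at 3 h); under control-RNA scaling S14 raised 0 genes at either time.

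The 3 regulators moved apart. Tfeb fell after 3 h of LPS, with 3.25, 1.95, 0.728 and 0.260 CPM, against 24.0, 21.6, 23.8 and 28.9 CPM in untreated cells (-4.00 ± 0.34, adjusted p = 1.25e-12). All 4 LPS libraries lay far below the untreated ones, on 23 reads in all. At 18 h Tfeb had 27.2, 32.7, 20.4 and 16.8 CPM with LPS, against 52.8, 33.0, 43.8 and 57.2 CPM in untreated cells (-0.95 ± 0.20, adjusted p = 0.000175). Every LPS value was below the lowest untreated one, and the LPS effect was smaller than at 3 h, by a difference between times of 3.05 ± 0.42, adjusted p = 1.42e-07. With S14, Tfeb had 30.3, 39.5, 36.3 and 33.0 CPM at 18 h (-0.42 ± 0.20, adjusted p = 0.121) and 27.1, 16.5, 20.9 and 16.8 CPM at 3 h (-0.28 ± 0.22, adjusted p = 0.482). Both sets overlapped the untreated libraries, and neither difference passed the test; without untreated 18 h replicate 2 the 18 h value did (-0.56, adjusted p = 0.0374).

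Tfe3, the X-linked relative of Tfeb, fell with LPS at 3 h to 92.8, 83.6, 115 and 106 CPM, against 159, 169, 176 and 178 CPM in untreated cells (-0.78 ± 0.09, adjusted p = 1.3e-09). The groups did not overlap, but under control-RNA scaling the fall was -0.43 and not called. At 18 h LPS libraries had 165, 155, 171 and 156 CPM, against 146, 155, 147 and 154 CPM in untreated cells (0.10 ± 0.09, adjusted p = 0.331). With S14, Tfe3 had 133, 134, 167 and 160.3 CPM at 18 h (-0.02 ± 0.09, adjusted p = 0.898) and 189, 185, 210.4 and 211 CPM at 3 h (0.22 ± 0.09, adjusted p = 0.0917). At 3 h all 4 S14 libraries were above the untreated ones, though the value missed the threshold in edgeR; DESeq2 gave an adjusted p of 0.034.

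Mitf, the family member known for pigment cells, mast cells and osteoclasts, was the only regulator that rose with either stimulus. LPS libraries had 216, 249.6, 245 and 254 CPM at 18 h, against 124, 132, 108 and 104 CPM in untreated cells (1.04 ± 0.08, adjusted p = 1.24e-14). At 3 h they had 268, 276, 296 and 278 CPM, against 126, 125, 128 and 121 CPM (1.16 ± 0.08, adjusted p = 3.98e-16). The 2 groups were well apart at both times. S14 libraries had 144, 149, 157 and 157 CPM at 18 h (0.37 ± 0.08, adjusted p = 0.000572) and 162, 183, 180.4 and 183 CPM at 3 h (0.50 ± 0.08, adjusted p = 7.47e-06), above every untreated library of the same time and below every LPS one. Set against LPS, S14 gave -0.67 ± 0.08, adjusted p = 4.43e-09 at 18 h and -0.66 ± 0.08, adjusted p = 3.78e-09 at 3 h. Under control-RNA scaling the S14 value turned at 18 h, to -0.57, or -0.14 without untreated replicate 4. The S14 rise of Mitf at 3 h was not called under that scaling, with or without that library. Its LPS rise at 18 h was not called either, but it was called without that library.

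**Figure D2:**
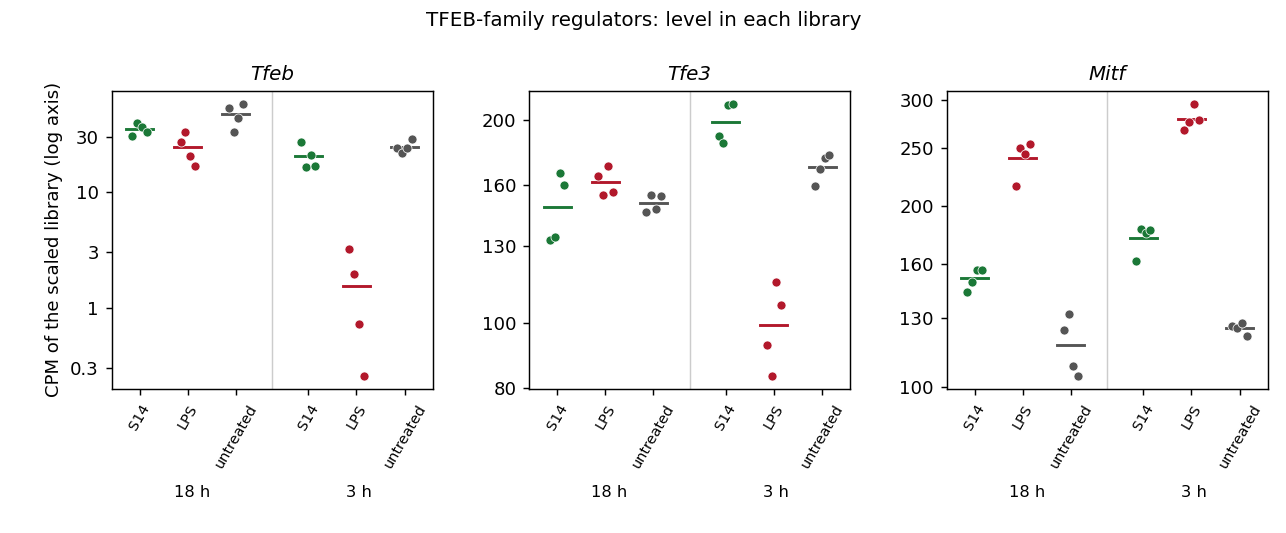
Level of Tfeb, Tfe3 and Mitf in each library (CPM of the scaled library, log axis), at 18 h on the left and 3 h on the right of each panel; points are libraries and lines the means of 4. Tfeb lies between 0.26 and 3.25 CPM with LPS at 3 h, against 21.6 to 28.9 CPM in untreated cells, while Mitf is highest with LPS at both times.

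Among 19 genes that control TFEB, from a list of mTORC1, Rag GTPase, folliculin, calcineurin and 14-3-3 genes that also holds the related factor Tfec, LPS at 3 h called 6 higher and 9 lower, and S14 at 3 h 1 higher. Tfec, a family member without the others' activation domain and expressed in macrophages, had 72.2 ± 6.24 CPM with S14 and 164 ± 12.2 CPM with LPS, against 26.1 ± 3.97 CPM in untreated cells at 3 h. It was the highest of the list with S14 (1.47 ± 0.12, adjusted p = 4.68e-13) and with LPS (2.65 ± 0.12, adjusted p = 8.8e-23), and at 18 h neither stimulus changed it by the test (0.09 ± 0.13, adjusted p = 0.663 with S14 and -0.05 ± 0.14, adjusted p = 0.77 with LPS). The lowest with LPS at 3 h was Flcn, folliculin, which with its partners Fnip1 and Fnip2 sets the Rag GTPases so that mTORC1 holds TFEB back. Flcn had 3.24 ± 1.43 CPM with LPS, against 25.3 ± 5.03 CPM in untreated cells (-2.97 ± 0.23, adjusted p = 4.15e-15), and Fnip2 9.00 ± 2.01 CPM, against 52.9 ± 6.64 CPM (-2.55 ± 0.16, adjusted p = 6.13e-17; named after its value was seen). At 18 h LPS called 1 higher and 7 lower, from Lamtor3, a Ragulator subunit (0.69 ± 0.13, adjusted p = 2.22e-05), down to Rragd, the RagD GTPase (-1.69 ± 0.25, adjusted p = 2.81e-07). S14 at 18 h called 3 higher and 5 lower, from Lamtor3 at 0.60 ± 0.13, adjusted p = 0.000581 down to Rragd at -0.84 ± 0.24, adjusted p = 0.00733. Of all tested genes LPS called 25.3% higher and 30.2% lower at 3 h, and 27.3% and 28.3% at 18 h. For S14 these shares were 9.05% and 6.2% at 3 h and 12.6% and 11.6% at 18 h.

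Cathepsins are the proteases of the lysosome, most of them cysteine enzymes, with Ctsd an aspartyl and Ctsa a serine enzyme. In the scaled libraries 5 of 9 rose with S14 at 18 h (Ctsc, Ctsd, Ctsh, Ctsl and Ctsz) and 0 fell, but under control-RNA scaling all 9 lay below untreated cells, 4 of them called lower, and without untreated replicate 4 none was called, with 3 of 9 above 0. With LPS at 18 h 5 rose (Ctsc, Ctsd, Ctsh, Ctsl and Ctsz) and Ctsa fell, and under control-RNA scaling 1 rose and 2 fell, or 4 and 1 without untreated replicate 4. At 3 h S14 raised 2 and lowered 1, and LPS raised 4 and lowered 0, while under control-RNA scaling S14 called 0 and LPS raised 1, or 1 and 4 without untreated 18 h replicate 4. Of all tested genes S14 raised 12.6% and lowered 11.6% at 18 h, and LPS 27.3% and 28.3%. For 3 h these shares were 9.05% and 6.2% with S14 and 25.3% and 30.2% with LPS. Ctsz, cathepsin Z, a carboxypeptidase, had the highest S14 fold change at 18 h, with 1542, 1469, 1622 and 1539 CPM, against 1023, 934, 829 and 967 CPM in untreated cells (0.72 ± 0.07, adjusted p = 8.43e-11). No S14 value reached down to an untreated one. With LPS it had 1953, 1873, 1828 and 1733 CPM (0.98 ± 0.07, adjusted p = 7.03e-16), higher still. Reads from Nelfcd, a gene on the opposite strand whose exons overlap those of Ctsz, came to 5.19% of those of Ctsz.

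Ctsc, dipeptidyl peptidase I, which trims the proforms of granule serine proteases, had the highest LPS fold change of the cathepsins at both times. LPS libraries had 919.8, 929, 1056 and 1237 CPM at 18 h, against 313, 279, 268 and 371 CPM in untreated cells (1.75 ± 0.09, adjusted p = 1.91e-20). At 3 h they had 1862, 1639.6, 1885 and 1725 CPM, against 337, 341, 346 and 378 CPM (2.34 ± 0.09, adjusted p = 6.37e-25). The groups were well apart, and the LPS effect was smaller at 18 h than at 3 h (-0.59 ± 0.12, adjusted p = 0.000106). With S14, Ctsc had 463, 462, 514 and 457 CPM at 18 h (0.62 ± 0.09, adjusted p = 6.56e-07) and 498, 554, 539 and 573 CPM at 3 h (0.63 ± 0.09, adjusted p = 4.62e-07). These values sat between untreated and LPS libraries at both times, and the test of a difference in the S14 effect between the times gave an adjusted p of 0.993.

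Ctsl, cathepsin L, an endopeptidase that macrophages also secrete, changed sides with time in the scaled libraries. Under control-RNA scaling its S14 value at 18 h turned below 0, with or without untreated replicate 4. No cathepsin was called lower with S14 at 3 h under that scaling. S14 libraries had 1187, 1183, 1023 and 1081 CPM at 18 h, against 870.1, 891, 847 and 719.9 CPM in untreated cells (0.43 ± 0.08, adjusted p = 0.000116). At 3 h they had 787, 821, 733 and 728 CPM, against 1035, 958, 887 and 868 CPM (-0.29 ± 0.08, adjusted p = 0.0112). The groups did not overlap at either time, the 2 effects differed by 0.72 ± 0.12, adjusted p = 1.4e-05, and the 3 h call was lost without untreated 3 h replicate 1 (adjusted p = 0.0707). With LPS, Ctsl had 2125, 2366, 1990.0 and 1932 CPM at 18 h (1.34 ± 0.08, adjusted p = 1.13e-17) and 959, 879, 825 and 737 CPM at 3 h (-0.14 ± 0.08, adjusted p = 0.149). Each 18 h value with LPS was above every other library. Without LPS 3 h replicate 1 the 3 h value was -0.21 (adjusted p = 0.0469).

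Ctsh, an aminopeptidase, rose at 18 h with S14 (0.55 ± 0.09, adjusted p = 2.22e-05) and with LPS (1.03 ± 0.10, adjusted p = 1.56e-12), as did Ctsd, the main aspartyl protease (0.50 ± 0.07, adjusted p = 3.35e-07 with S14 and 0.26 ± 0.07, adjusted p = 0.00138 with LPS). Under control-RNA scaling Ctsd turned to -0.45 with S14 and -0.38 with LPS, and Ctsh to -0.39 with S14, while without untreated replicate 4 these values were -0.029, 0.047 and 0.017. Ctsa, which also protects β-galactosidase and neuraminidase in the lysosome, was the cathepsin called lower with LPS at 18 h, with 638, 602, 551 and 586 CPM, against 825, 848, 761 and 987 CPM in untreated cells (-0.53 ± 0.08, adjusted p = 1.53e-07). The groups did not overlap. Pltp, whose exons overlap those of Ctsa on the opposite strand, had 98226 reads to 82159 of Ctsa and a value of -0.32. The sources used here do not say whether counting used strand. Ctsb, an abundant endo- and exopeptidase, had the smallest called change of the cathepsins with LPS at 3 h: 8325, 8615, 8483 and 8327 CPM, against 7595, 7734, 7298 and 7534 CPM in untreated cells (0.16 ± 0.06, adjusted p = 0.0296). Its call was lost without any 1 of untreated 3 h replicates 1, 3 and 4 or LPS 3 h replicates 2 and 3, with adjusted p up to 0.0873. That of Ctsz with S14 at 3 h (0.21 ± 0.07, adjusted p = 0.0295) was lost without any 1 of untreated replicates 3 and 4 or S14 replicates 2 and 4, up to 0.126. Ctss, which trims the invariant chain in antigen presentation, rose with LPS at 3 h (0.38 ± 0.08, adjusted p = 0.000149) and had -0.11 ± 0.08, adjusted p = 0.264 at 18 h, where it was called lower without untreated replicate 4 (-0.18, adjusted p = 0.0403). Ctsk, the collagenase of osteoclasts, had 892 reads in all and missed the threshold in the 4 comparisons with untreated cells (-0.33 to 0.10).

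**Figure D3:**
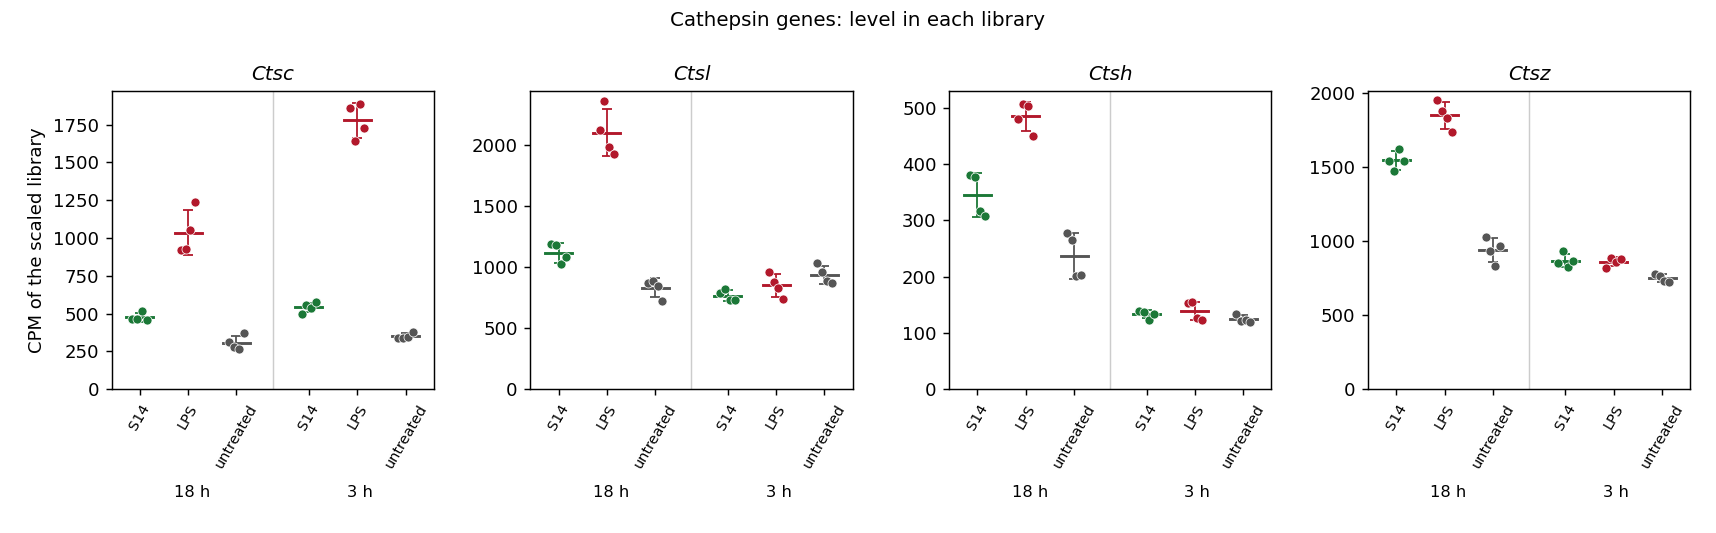
Level of Ctsc, Ctsl, Ctsh and Ctsz in each library (CPM of the scaled library, axes from 0), at 18 h on the left and 3 h on the right of each panel; points are libraries, lines means and bars SD of 4. At 18 h the 4 S14 libraries lie above the 4 untreated ones in each panel and, for these genes, below the 4 LPS ones; relative to control RNAs the 4 S14 values at 18 h turned to -0.52 to -0.30, and without untreated replicate 4 only Ctsl stayed below 0.

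Of 5 tested genes of cathepsin inhibitors, S14 at 18 h called 2 higher and 1 lower and LPS at 18 h 2 and 2. Cst7, cystatin F, which blocks the maturation of cathepsin C among others, was the highest in each: 15.8 ± 4.30 CPM with S14 and 80.3 ± 16.2 CPM with LPS, against 5.13 ± 2.87 CPM in untreated cells (1.67 ± 0.27, adjusted p = 1.29e-05 and 4.01 ± 0.24, adjusted p = 1.06e-15). At 3 h LPS called 1 higher, Cst7 (2.68 ± 0.24, adjusted p = 2.06e-11), and 1 lower, Serpinb6a (-0.46 ± 0.14, adjusted p = 0.00794), and S14 called 0 of 5 by edgeR. The lowest at 18 h was Serpinb6a with LPS (-0.61 ± 0.14, adjusted p = 0.00064). With S14 it was Serpinb1a, on under 1 CPM in either group. Of all tested genes S14 called 12.6% higher and 11.6% lower at 18 h, and LPS 27.3% and 28.3%.

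Most of the other hydrolases and their partners serve the breakdown of lipids, glycans and glycosaminoglycans. With LPS the genes of this role were called more often in the lower than in the higher direction. LPS at 18 h lowered 7 of 10 (Lipa, Tpp1, Cln3, Gusb, Naglu, Sgsh and Man2b1) and raised 1, Hgsnat, and under control-RNA scaling it lowered 7 and raised 0, or 5 and 1 without untreated replicate 4. LPS at 3 h lowered 5 (3 with DESeq2 size factors in edgeR) and raised 1, Cln3, and under control-RNA scaling 1 fell, Sgsh, and Tpp1 and Man2b1 turned to 0.12 and 0.14. S14 called 0 of 10 at 18 h and lowered 2 at 3 h, Sgsh and Man2b1. Under control-RNA scaling S14 lowered 9 at 18 h, or 1 without untreated replicate 4. At 3 h it then called 0, or lowered 1 without untreated 18 h replicate 4. Of all tested genes LPS lowered 28.3% at 18 h and 30.2% at 3 h, and S14 11.6% and 6.2%.

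Sgsh, the sulfamidase of heparan sulfate breakdown, fell furthest. LPS libraries had 18.5, 18.1, 14.5 and 17.3 CPM at 18 h, against 67.4, 71.8, 74.4 and 40.6 CPM in untreated cells (-1.90 ± 0.17, adjusted p = 1.24e-12). At 3 h they had 9.47, 5.57, 8.01 and 7.79 CPM, against 32.5, 33.3, 34.1 and 28.6 CPM (-2.05 ± 0.20, adjusted p = 1.35e-11). The groups were apart at both times, although untreated 18 h replicate 4 was low beside its group. With S14, Sgsh had 74.8, 69.2, 68.9 and 69.2 CPM at 18 h (0.15 ± 0.15, adjusted p = 0.529) and 21.2, 17.2, 13.3 and 9.66 CPM at 3 h (-1.10 ± 0.18, adjusted p = 8.76e-06). S14 libraries lay below untreated ones at 3 h and near the top of the untreated range at 18 h, a difference between times of 1.25 ± 0.24, adjusted p = 0.000152.

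Man2b1, lysosomal α-mannosidase, had 309, 292, 275 and 307 CPM with S14 at 3 h, against 346, 382, 332 and 375 CPM in untreated cells (-0.28 ± 0.08, adjusted p = 0.00859). All 4 S14 libraries were below all 4 untreated ones. LPS lowered it at 18 h (-1.19 ± 0.08, adjusted p = 4.32e-17), while at 3 h the LPS call (-0.19 ± 0.08, adjusted p = 0.0351) was lost without any 1 of untreated replicates 2 and 4 or LPS replicates 1 and 3 (adjusted p up to 0.171). The LPS call at 3 h of Tpp1, tripeptidyl peptidase (-0.21 ± 0.08, adjusted p = 0.0198), was lost without LPS replicate 1 (adjusted p = 0.0999). Gusb, β-glucuronidase (-1.19 ± 0.11, adjusted p = 1.33e-11), Lipa, the acid lipase of cholesteryl esters (-1.05 ± 0.09, adjusted p = 7.25e-13), and Naglu, N-acetylglucosaminidase (-0.72 ± 0.09, adjusted p = 3.6e-09), fell with LPS at 18 h. For Gusb, untreated 18 h replicate 4 was high, at 753 CPM against 429 to 455 CPM in the other untreated 18 h libraries. LPS libraries had 201 to 244 CPM, below all of them. Lipa also fell with LPS at 3 h (-0.45 ± 0.09, adjusted p = 5.78e-05), and with S14 at 3 h it had -0.25 ± 0.09, adjusted p = 0.0567, a value called without any 1 of 5 libraries (adjusted p from 0.0236).

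Hgsnat, the membrane acetyltransferase of heparan sulfate breakdown, was the only hydrolase-list gene to rise with LPS at 18 h, to 252, 256, 244 and 228 CPM, against 143, 122, 156 and 137 CPM in untreated cells (0.81 ± 0.09, adjusted p = 4.47e-10). The groups were apart, and at 3 h the value was -0.37 ± 0.10, adjusted p = 0.00202, a difference between times of 1.183 ± 0.14, adjusted p = 1.15e-09. Cln3, a lysosomal membrane protein of Batten disease, went the other way: 259, 287, 255 and 261 CPM with LPS at 3 h, against 109, 130.4, 133 and 138 CPM in untreated cells (1.06 ± 0.10, adjusted p = 6.32e-13), and the 3 h groups were far apart. At 18 h its LPS value was -0.34 ± 0.09, adjusted p = 0.00252, a difference between times of -1.40 ± 0.13, adjusted p = 8.33e-12. Apobr, a lipoprotein receptor gene whose exons overlap those of Cln3 on the opposite strand, had 77.4% of the reads of Cln3 and values of 0.53 at 3 h and -0.62 at 18 h with LPS. Its part in the Cln3 values was not tested. Ppt1, a palmitoyl thioesterase, and Gaa, acid α-glucosidase, passed the test in none of the 4 comparisons with untreated cells; without untreated 18 h replicate 4 Ppt1 was called higher with LPS at 18 h (0.21, adjusted p = 0.0321). The exons of Ppt1 overlap those of Cap1, which had 56585 reads to 15790 of Ppt1.

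**Figure D4:**
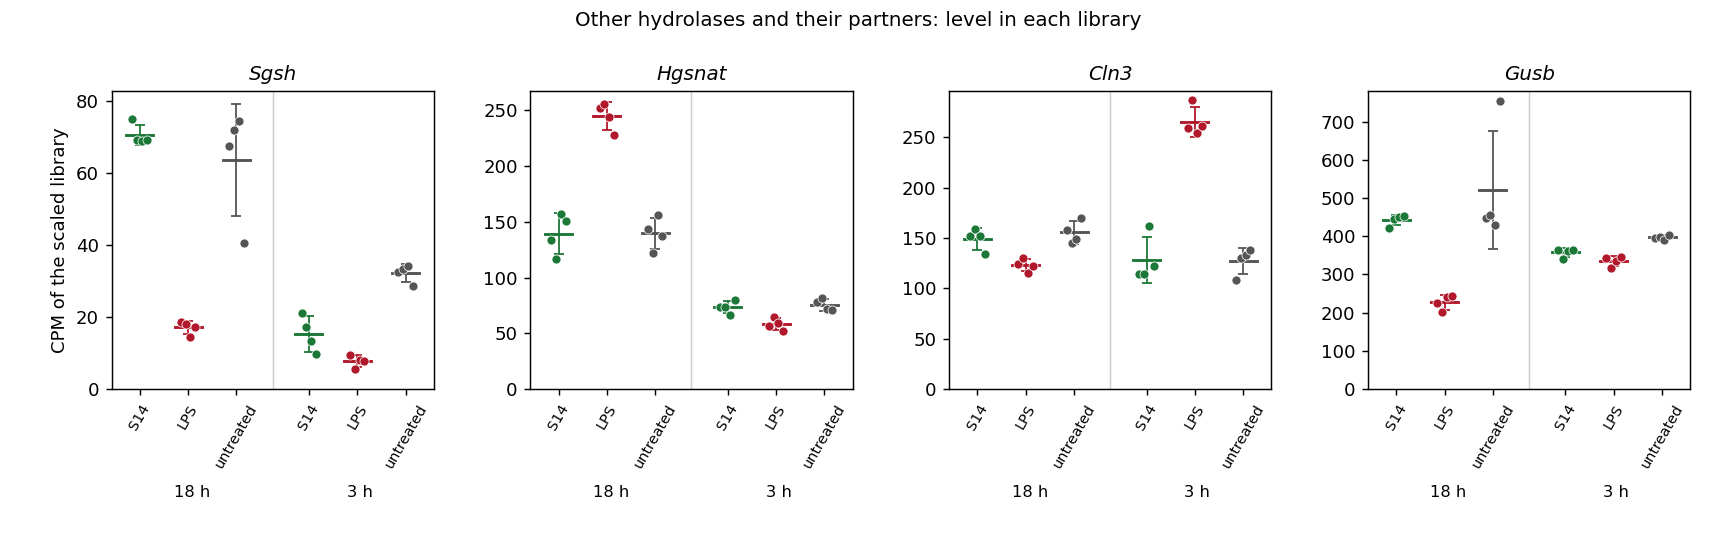
Level of Sgsh, Hgsnat, Cln3 and Gusb in each library (CPM of the scaled library, axes from 0), at 18 h on the left and 3 h on the right of each panel; points are libraries, lines means and bars SD of 4. Sgsh has 14.5 to 18.5 CPM with LPS at 18 h and 5.57 to 9.47 CPM with LPS at 3 h, and untreated 18 h replicate 4 is high for Gusb (753 CPM) and low for Sgsh (40.6 CPM).

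Of 26 other lysosomal hydrolases and activators, LPS at 18 h called 11 higher and 12 lower, from Psap, the saposin precursor (1.91 ± 0.37, adjusted p = 0.000223), to Ctsf, cathepsin F (-2.82 ± 0.36, adjusted p = 5.83e-09). LPS at 3 h called 5 higher and 9 lower, from Acp5, tartrate-resistant acid phosphatase (1.98 ± 0.31, adjusted p = 4.3e-07), to Psap (-1.42 ± 0.37, adjusted p = 0.00319). S14 at 18 h called 6 higher and 3 lower, from Psap (1.87 ± 0.37, adjusted p = 0.000963) to Arsb, arylsulfatase B (-0.81 ± 0.19, adjusted p = 0.00157), and S14 at 3 h 1 and 1, Acp2, lysosomal acid phosphatase (0.50 ± 0.07, adjusted p = 5.88e-07), and Fuca1, α-fucosidase (-0.28 ± 0.09, adjusted p = 0.0266). Of all tested genes LPS called 27.3% higher and 28.3% lower at 18 h, and 25.3% and 30.2% at 3 h. For S14 these shares were 12.6% and 11.6% at 18 h and 9.05% and 6.2% at 3 h.

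Of the lysosomal membrane and channel genes, LPS at 18 h raised 2 of 8 (Lamp2 and Laptm4a) and lowered 3 (Cd68, Laptm5 and Mcoln1), and under control-RNA scaling 0 rose and 3 fell, or 0 and 1 without untreated replicate 4. LPS at 3 h raised 3 (Lamp2, Scarb2 and Laptm4a) and lowered 0, and under control-RNA scaling raised 2, or 4 without untreated 18 h replicate 4. S14 raised Cd63 and lowered Lamp2 and Laptm5 at 18 h and called 0 of 8 at 3 h by edgeR, and under control-RNA scaling at 18 h it raised 0 and lowered 7, or 2 without untreated replicate 4. Of all tested genes LPS raised 27.3% and lowered 28.3% at 18 h, and 25.3% and 30.2% at 3 h. For S14 at 18 h these shares were 12.6% and 11.6%. Lamp2, a main glycoprotein of the lysosomal membrane and receptor of chaperone-mediated autophagy, had 1238, 1357, 1125 and 1187 CPM with LPS at 18 h (0.56 ± 0.07, adjusted p = 6.24e-09) and 691, 698, 687 and 703 CPM with S14 (-0.26 ± 0.07, adjusted p = 0.00426), against 816, 844, 761 and 918 CPM in untreated cells. Every LPS value was above and every S14 value below the untreated ones, but under control-RNA scaling the LPS value turned to -0.16 (0.46 without untreated replicate 4). At 3 h LPS gave 1064, 992, 1065 and 944 CPM, against 597, 558, 554 and 605 CPM in untreated cells (0.81 ± 0.07, adjusted p = 2.63e-13).

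Cd63, a tetraspanin of late endosomes, had 2244, 2332, 2310.1 and 2285 CPM with S14 at 18 h, against 2005, 1912, 1789 and 1098 CPM in untreated cells (0.43 ± 0.11, adjusted p = 0.00494). The untreated spread came mostly from replicate 4; without it the S14 value was 0.27, adjusted p = 0.00383. Under control-RNA scaling the S14 value turned to -0.41, or -0.20 without that library. Scarb2, the receptor that carries glucocerebrosidase to lysosomes, had 178, 190.2, 226 and 215 CPM with LPS at 3 h, against 170.0, 159, 176 and 167 CPM in untreated cells (0.27 ± 0.10, adjusted p = 0.0165). Its call was lost without any 1 of untreated replicate 2 or LPS replicates 3 and 4 (adjusted p up to 0.0866). Laptm5, a lysosomal protein of blood cells, fell with LPS at 18 h to 1203, 1176, 1123 and 1122 CPM, against 2021, 2009, 1863 and 2095 CPM in untreated cells (-0.79 ± 0.06, adjusted p = 5.86e-14). The groups were clearly apart. The LPS calls at 18 h of Mcoln1, the TRPML1 cation channel (-0.71 ± 0.29, adjusted p = 0.0442), Cd68, a macrophage sialomucin (-0.24 ± 0.08, adjusted p = 0.00981), and Laptm4a (0.19 ± 0.07, adjusted p = 0.0186) were each lost without untreated 18 h replicate 4 (-0.16, -0.15 and 0.12, with adjusted p = 0.407, 0.0692 and 0.123). Other single libraries did the same: 9 more for Mcoln1, LPS 18 h replicates 3 and 4 for Cd68 and LPS 18 h replicate 2 for Laptm4a, which turned to -0.39 under control-RNA scaling (-0.014 without untreated replicate 4). Lamp1, the partner of Lamp2 whose promoter holds 4 cores, passed the test in none of the 4 comparisons with untreated cells (-0.05 to 0.15); without untreated 18 h replicate 1 it was called higher with S14 at 18 h (0.20, adjusted p = 0.0332).

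Of 11 other lysosomal transporters and membrane proteins, LPS at 18 h called 6 higher and 2 lower, from Slc11a1, the metal transporter NRAMP1 of phagosomes (1.94 ± 0.08, adjusted p = 2.86e-23), to Slc17a5, the sialic acid exporter (-0.63 ± 0.16, adjusted p = 0.00102). LPS at 3 h called 4 and 6, with Ctns, the cystine exporter, the lowest (-2.55 ± 0.26, adjusted p = 8.27e-11). S14 at 18 h called 4 and 0, led by Slc11a1 (0.90 ± 0.08, adjusted p = 1.37e-11), and S14 at 3 h 2 and 2, with Ctns the lowest (-0.65 ± 0.21, adjusted p = 0.0288). Of 5 genes of enzyme sorting, LPS called 2 higher and 2 lower at 18 h, from M6pr, a mannose 6-phosphate receptor (1.02 ± 0.09, adjusted p = 1.45e-12), to Sort1, sortilin (-1.60 ± 0.20, adjusted p = 2.66e-09), and 2 higher at 3 h, M6pr (0.89 ± 0.09, adjusted p = 5.66e-11) and Gnptab (0.89 ± 0.11, adjusted p = 6.41e-09). S14 called 1 higher and 2 lower at 18 h, from Igf2r (0.45 ± 0.14, adjusted p = 0.014) to Sort1 (-0.78 ± 0.18, adjusted p = 0.00108), and 1 higher at 3 h, M6pr (0.38 ± 0.09, adjusted p = 0.00227). Of all tested genes LPS called 27.3% higher and 28.3% lower at 18 h, and 25.3% and 30.2% at 3 h. For S14 these shares were 12.6% and 11.6% at 18 h and 9.05% and 6.2% at 3 h.

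In the scaled libraries, proton pump genes of both sectors, V0 and V1, were called in both directions with LPS at 18 h. With LPS at 18 h 4 of 10 rose (Atp6v0b, Atp6v0d1, Atp6v1d and Atp6v1h) and 5 fell (Atp6v0a1, Atp6v0d2, Atp6v1a, Atp6v1b2 and Atp6v1c1), and under control-RNA scaling 0 rose and 5 fell, or 0 and 2 without untreated replicate 4. With S14 at 18 h 3 rose (Atp6v0b, Atp6v1d and Atp6ap1) and Atp6v0d2 fell, and under control-RNA scaling 0 rose and 9 fell, or 0 and 1 without untreated replicate 4. At 3 h LPS lowered 4 (Atp6v0a1, Atp6v0b, Atp6v1b2 and Atp6v1c1), 3 of which turned to between 0.04 and 0.15 under control-RNA scaling (2 pump genes were then called higher without untreated 18 h replicate 4), and S14 lowered 1, Atp6v1a, with 0 called under that scaling. Of all tested genes LPS raised 27.3% and lowered 28.3% at 18 h, and 25.3% and 30.2% at 3 h. For S14 these shares were 12.6% and 11.6% at 18 h and 9.05% and 6.2% at 3 h.

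Atp6v0d2, the V0 d subunit isoform known from osteoclasts and also made by macrophages, had the largest changes of the pump genes at 18 h. LPS libraries had 9.84, 14.8, 7.61 and 10.9 CPM and S14 libraries 63.2, 63.8, 42.3 and 49.8 CPM at 18 h, against 87.1, 135, 113 and 107 CPM in untreated cells (-3.36 ± 0.19, adjusted p = 6.92e-18 with LPS and -1.01 ± 0.15, adjusted p = 4.08e-06 with S14). The 3 groups did not overlap, with LPS lowest and S14 between. At 3 h Atp6v0d2 had 46.8, 39.3, 42.2 and 37.1 CPM with LPS (0.31 ± 0.17, adjusted p = 0.122) and 26.9, 41.9, 30.6 and 26.8 CPM with S14 (-0.08 ± 0.17, adjusted p = 0.832), against 37.9, 40.1, 29.0 and 26.05 CPM in untreated cells. All 3 groups overlapped. Osteoclast markers were low, at 46.5 to 64.4 CPM with S14, 23.3 to 32.7 CPM with LPS and 53.8 to 70.9 CPM in untreated cells at 18 h for 7 genes together. Nfatc1 made up most of it. With S14 1 of the 4 tested markers was called, Mmp9, at 6.04 CPM with S14 and 1.15 CPM with LPS, against 1.35 CPM in untreated cells (2.11 with S14, adjusted p = 0.000771), and with LPS 3 were called lower. Dcstamp, the fusion receptor of osteoclasts, averaged 5.33 CPM with S14, 0.172 CPM with LPS and 9.52 CPM in untreated cells, and Oscar and Calcr were at 0 in untreated cells. The part of such cells in the Atp6v0d2 values was not tested.

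Atp6v1d, a central stalk subunit of V1, was the highest called pump gene with LPS at 18 h, with 362, 378, 331 and 282 CPM, against 251, 247, 234 and 205 CPM in untreated cells (0.53 ± 0.09, adjusted p = 2.03e-06). The groups did not overlap, but under control-RNA scaling the value turned to -0.12 (0.29 without untreated replicate 4). The second deposited table held 73.23% of the Atp6v1d reads of the count table, and its LPS value there was 0.60, adjusted p = 1.29e-06. Atp6ap1, an accessory subunit that helps to assemble V0, was the highest with S14 at 18 h, with 890.4, 971, 944 and 984 CPM, against 855, 827, 835 and 606 CPM in untreated cells (0.28 ± 0.08, adjusted p = 0.00731). Its groups did not overlap, but replicate 4 of the untreated cells was low and without it the value was 0.18 (adjusted p = 0.0506). Under control-RNA scaling it turned to -0.62, or -0.30 without that library. The S14 calls at 18 h of Atp6v0b, a proteolipid subunit (0.24 ± 0.08, adjusted p = 0.0273), and Atp6v1d (0.25 ± 0.09, adjusted p = 0.0313) were each lost without any 1 of 4 libraries (adjusted p up to 0.102 and 0.0955). These were untreated replicates 2 and 3 and S14 replicates 3 and 4 for Atp6v0b, and untreated replicates 3 and 4 and S14 replicates 1 and 2 for Atp6v1d. Both turned under control-RNA scaling, to -0.82 for Atp6v0b and -0.69 for Atp6v1d (-0.17 and -0.28 without untreated replicate 4).

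Atp6v0a1, the widely expressed V0 a subunit, fell with LPS at 18 h to 74.5, 93.9, 71.4 and 58.3 CPM, against 209.6, 245, 241 and 201 CPM in untreated cells (-1.59 ± 0.10, adjusted p = 1.12e-17). The groups were far apart. Atp6v1b2, the V1 B subunit of most cells, had 487, 466, 471 and 504 CPM with LPS at 3 h, against 666, 672, 725 and 669.8 CPM in untreated cells (-0.50 ± 0.08, adjusted p = 1.05e-06), the lowest called value at that time, and Atp6v1c1, a V1 C subunit, 148, 148, 144 and 141 CPM, against 172, 172, 165 and 161 CPM (-0.21 ± 0.08, adjusted p = 0.0305), the called value nearest 0. Neither pair of groups overlapped. The 3 h call of Atp6v1c1 was lost without any 1 of untreated replicates 1 and 2 or LPS replicates 3 and 4 (adjusted p up to 0.0699), and that of Atp6v0a1 (-0.23 ± 0.10, adjusted p = 0.0434) without any 1 of untreated replicates 2 and 3 or LPS replicates 1, 2 and 4 (up to 0.165). With S14 at 3 h Atp6v1a, the catalytic V1 A subunit, had 774, 758, 648 and 745 CPM, against 912, 897, 829 and 839.9 CPM in untreated cells (-0.25 ± 0.08, adjusted p = 0.0231). All S14 libraries were lower, but the call was lost without any 1 of untreated replicates 1 and 2 or S14 replicate 3 (adjusted p up to 0.138). The small falls with LPS at 18 h of Atp6v1a (-0.23 ± 0.08, adjusted p = 0.0135), Atp6v1b2 (-0.22 ± 0.08, adjusted p = 0.0181) and Atp6v1c1 (-0.22 ± 0.08, adjusted p = 0.0201) and the rise of Atp6v0d1 (0.24 ± 0.09, adjusted p = 0.0181) were each lost without single libraries (adjusted p from 0.0507 to 0.126). These were untreated replicate 2 for Atp6v1a, untreated replicate 4 and LPS replicates 3 and 4 for Atp6v1b2, untreated replicates 1 and 2 and LPS replicates 1 and 4 for Atp6v1c1, and untreated replicate 3 and LPS replicate 2 for Atp6v0d1, which turned to -0.43 under control-RNA scaling (0.083 without untreated replicate 4).

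Of 7 further pump subunits, S14 raised 6 at 18 h, while LPS raised 6 and lowered 1. The highest were Atp6v1g1 with S14 (0.68 ± 0.13, adjusted p = 0.000115) and Atp6v0a2, another a subunit, with LPS (1.16 ± 0.11, adjusted p = 7.89e-12), and the 1 that fell was Atp6ap2, the prorenin receptor (-0.28 ± 0.08, adjusted p = 0.00143). At 3 h LPS raised 4, led by Atp6v1e1 (0.76 ± 0.09, adjusted p = 2.55e-10), and S14 called 0 by edgeR, at values of -0.06 to 0.21. Of all tested genes S14 raised 12.6% at 18 h, and LPS raised 27.3% at 18 h and 25.3% at 3 h. The further gene lists were not refitted under control-RNA scaling, whose shift of all genes is given above.

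**Figure D5:**
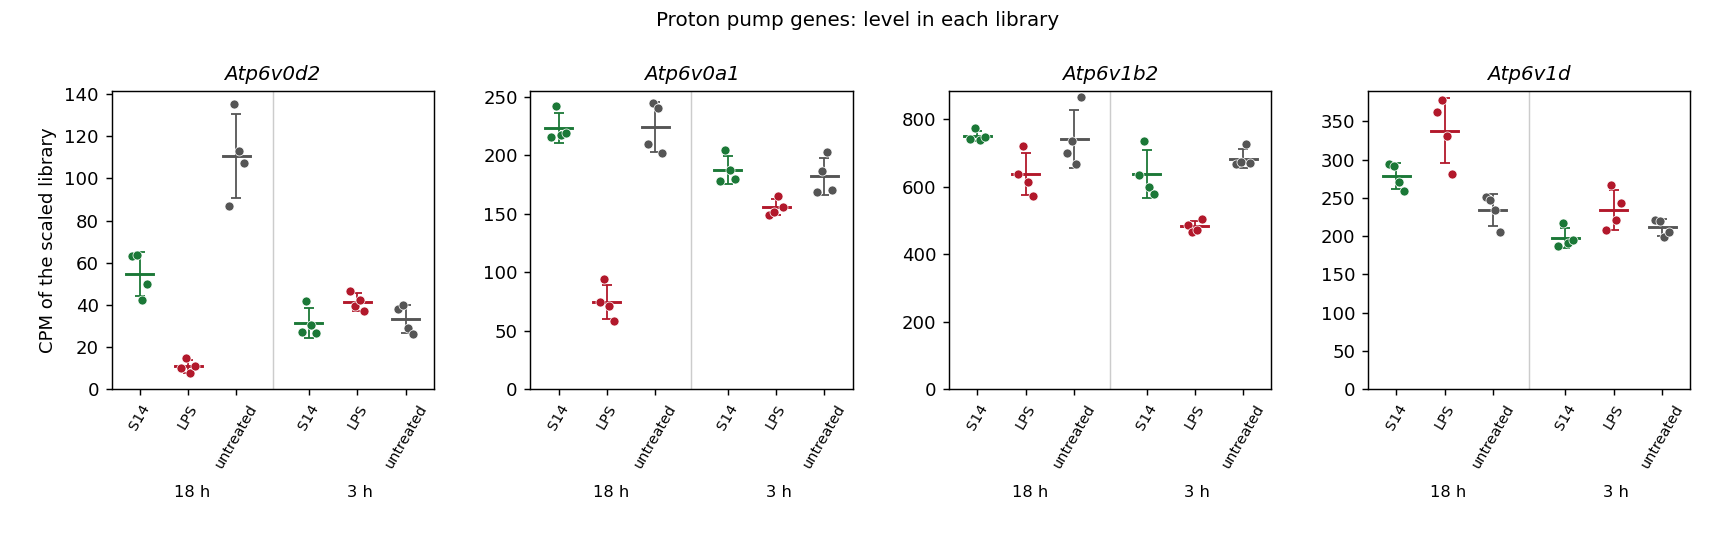
Level of Atp6v0d2, Atp6v0a1, Atp6v1b2 and Atp6v1d in each library (CPM of the scaled library, axes from 0), at 18 h on the left and 3 h on the right of each panel; points are libraries, lines means and bars SD of 4. At 18 h Atp6v0d2 lies at 7.61 to 14.8 CPM with LPS and 42.3 to 63.8 CPM with S14, against 87.1 to 135 CPM in untreated cells.

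S14 and LPS were also set against each other. At 18 h 18 of 40 genes were higher and 9 lower with S14 than with LPS, beside 42.6% of all tested genes called, 21.3% in each direction. At 3 h 7 were higher and 10 lower, beside 46.1% called, 23.7% higher and 22.4% lower. Under control-RNA scaling 3 were higher and 5 lower at 18 h and 1 and 5 at 3 h, and without untreated 18 h replicate 4 these counts were 6 and 9 at 18 h and 2 and 9 at 3 h. At 18 h 7 of 10 other hydrolases and partners were higher with S14, among them Sgsh (2.04 ± 0.17, adjusted p = 3.62e-13) and Man2b1 (1.12 ± 0.08, adjusted p = 7.24e-16), and Hgsnat was lower (-0.81 ± 0.09, adjusted p = 1.02e-09). Of the cathepsins 3 were higher and 4 lower with S14 at 18 h, from Ctsa (0.40 ± 0.08, adjusted p = 4.1e-05) to Ctsc (-1.13 ± 0.09, adjusted p = 3.81e-14). Atp6v0d2 (2.35 ± 0.19, adjusted p = 7.23e-13) and Atp6v0a1 (1.59 ± 0.10, adjusted p = 3.84e-17) were the pump genes furthest above LPS. Tfeb was higher with S14 than with LPS at 18 h (0.53 ± 0.21, adjusted p = 0.0411) and at 3 h (3.71 ± 0.34, adjusted p = 1.94e-11), and the 18 h call was lost without any 1 of S14 replicates 2, 3 and 4 or LPS replicates 3 and 4 (adjusted p up to 0.159). At 3 h Ctsc (-1.72 ± 0.09, adjusted p = 3.31e-20), Cln3 (-1.05 ± 0.09, adjusted p = 1.18e-12) and Lamp2 (-0.77 ± 0.07, adjusted p = 1.65e-12) were the lowest relative to LPS.

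In untreated cells 27 of the 40 genes were higher at 18 h than at 3 h and 2 lower, beside 38.8% of all tested genes called, 19.2% higher and 19.6% lower. The median of the 40 was 0.33, against -0.01 for all genes. Under control-RNA scaling 1 of 3 regulators, 8 of 8 membrane and channel genes and 7 of 9 cathepsins were higher at 18 h. So were 10 of 10 other hydrolases and partners and 8 of 10 pump genes. Without untreated 18 h replicate 4 these counts were 1, 4, 5, 6 and 4. The 2 lower genes, Atp6v0b (-0.34 ± 0.08, adjusted p = 0.00103) and Atp6v1h (-0.37 ± 0.11, adjusted p = 0.0081), were above 0 under control-RNA scaling (0.59 and 0.36). Without untreated 18 h replicate 4 that scaling put 9 of 10 pump genes above 0. Atp6v0b then stayed below 0, and Atp6v1h turned only to near 0. The call of Atp6v1h was lost without untreated 3 h replicate 1 (adjusted p = 0.0503). All 10 other hydrolases and partners were higher at 18 h, with Sgsh the furthest (0.98 ± 0.16, adjusted p = 3.62e-06) and Tpp1 the least (0.19 ± 0.08, adjusted p = 0.0429). The call of Tpp1 was lost without any 1 of 14 libraries (adjusted p up to 0.105), that of Gusb without untreated 18 h replicate 4 (0.0675) and that of Cln3 without untreated 3 h replicate 1 (0.0918). Outside this role, Ctsa lost its call without untreated 3 h replicate 1 (0.0511) or untreated 18 h replicate 4 (0.0781). Lamp1 lost its call without untreated 18 h replicate 1 (0.0695). Of the cathepsins 6 were higher, led by Ctss, with 5844, 6021, 5319 and 4642 CPM at 18 h, against 2117, 2294, 1986 and 2022 CPM at 3 h (1.37 ± 0.08, adjusted p = 4.57e-17). Every 18 h library was more than 2-fold above every 3 h one. Tfeb (0.93 ± 0.20, adjusted p = 0.00043), Atp6v0d2 (1.73 ± 0.16, adjusted p = 5.48e-11), Mcoln1 (1.37 ± 0.30, adjusted p = 0.0011) and, from the TFEB control list, Rragd (2.11 ± 0.26, adjusted p = 1.3e-08) were also higher at 18 h. Tfe3 (-0.18 ± 0.09, adjusted p = 0.109) and Mitf (-0.10 ± 0.08, adjusted p = 0.38) did not pass the test. Mcoln1 had 39.3, 39.2, 39.6 and 112 CPM at 18 h, against 25.4, 22.5, 15.0 and 25.8 CPM at 3 h, with replicate 4 the highest at 18 h, and without it the value was 0.83, adjusted p = 6.82e-05. The genes together took 4.73 ± 0.259% of gene reads in untreated cells at 18 h, against 3.89 ± 0.0408% at 3 h. At 18 h they took 5.03 ± 0.174% with S14 and 3.87 ± 0.167% with LPS, and at 3 h 3.46 ± 0.123% and 2.71 ± 0.0482% (means ± SD, n = 4). These shares are of all gene reads, without the scaling behind CPM, and cannot be set beside the levels above. In scaled libraries cathepsins summed to 21210 CPM with LPS at 3 h, against 18770 CPM in untreated cells. Regulators and membrane genes also summed higher there, and other hydrolases and pump genes lower. At 18 h cathepsins (29170 against 25390 CPM) and regulators summed higher with LPS, and the other roles lower.

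The effect of each stimulus was also compared between the times. The S14 effect was higher at 18 h than at 3 h for 9 of the 40 genes and lower for 2, beside 16.6% of all tested genes called, 7.61% higher and 8.98% lower. The LPS effect was higher for 11 and lower for 15, beside 51.2% called, 25.1% higher and 26.1% lower. Cathepsins made up 4 of the 9 S14 genes (Ctsd, Ctsh, Ctsl and Ctsz), with Ctsl the furthest among them. Membrane and channel genes gave 5 of the 15 lower LPS effects and 0 of the higher ones. Under control-RNA scaling the S14 effect was higher at 18 h for 0 genes and lower for 14 (1 without untreated 18 h replicate 4). The LPS effect was then higher for 1 regulator. It was lower for 1 of 3 regulators, 7 of 8 membrane and channel genes and 4 of 9 cathepsins. It was also lower for 6 of 10 other hydrolases and partners and 3 of 10 pump genes. Without that library these lower counts were 0, 4, 3, 5 and 2, and 1 regulator and 1 cathepsin were higher.

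The 12 genes with CACGTG in the listed promoter and the 21 tested genes with a listed promoter and no core were set side by side, with no test. With S14 at 18 h 3 of 12 rose and 0 fell, against 6 and 2 of 21 without the core, and at 3 h 0 rose and 3 fell, against 3 and 1 of 21. With LPS at 18 h 4 of 12 rose and 6 fell, against 6 and 8 of 21, and at 3 h 1 rose and 2 fell, against 7 and 6 of 21. The shares over all tested genes were 12.6% higher and 11.6% lower with S14 at 18 h, and 9.05% and 6.2% at 3 h. With LPS they were 27.3% and 28.3% at 18 h, and 25.3% and 30.2% at 3 h. The 2 classes had medians of 0.10 and 0.01 with S14 at 18 h and of -0.12 and -0.05 with LPS at 18 h. Both classes held genes that rose and genes that fell: Ctsl and Sgsh, with the core, went to 1.34 and -1.90 with LPS at 18 h. Directions at 18 h carry the scaling limit given above.

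Autophagy genes, 14 on the list, many of them TFEB targets in other cells, were called by LPS 5 higher and 2 lower at 18 h, from Sqstm1, the cargo receptor p62 (1.23 ± 0.09, adjusted p = 3.34e-16), to Atg7 (-0.66 ± 0.11, adjusted p = 4.99e-06). LPS at 3 h called 3 higher and 8 lower, from Atg16l1 (1.000 ± 0.13, adjusted p = 9.32e-09) to the kinase Ulk1 (-1.56 ± 0.18, adjusted p = 9.87e-10). S14 called 2 and 2 at 18 h, from Atg5 (0.56 ± 0.11, adjusted p = 7.45e-05) to Gabarapl1 (-0.39 ± 0.09, adjusted p = 0.000813), and 1 and 4 at 3 h, from Sqstm1 (0.995 ± 0.09, adjusted p = 1.46e-12) to Uvrag (-0.63 ± 0.11, adjusted p = 3.38e-05). Sqstm1 had 1991 ± 152 CPM with S14 and 1366 ± 82.8 CPM with LPS, against 999 ± 59.5 CPM in untreated cells at 3 h. Of all tested genes LPS called 27.3% higher and 28.3% lower at 18 h, and 25.3% and 30.2% at 3 h. For S14 these shares were 12.6% and 11.6% at 18 h and 9.05% and 6.2% at 3 h.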

How the data were processed

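RNA of 24 libraries was counted with a 3′ kit, after 15 cycles of PCR, and sequenced on an Illumina instrument, per the labels' protocols. The submitters' processing notes name cutadapt 1.18, STAR 2.6.1a, featureCounts 1.6.4, DESeq2 and GRCm38; the sources used here leave out the strand setting and annotation release. The authors deposited raw read counts per gene, and a second table whose signal is those reads divided by 1 size factor per library, also with 114 control RNA entries, of which 62 had a read. From its steps whole reads were recovered within 8.59e-10 of a whole number, and the same test on them called 13 of the 40 genes higher and 17 lower with LPS at 18 h.

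Counts were fitted with edgeR 4.0.16 in R 4.3.3 (filterByExpr by group with a minimum count of 10 and total of 15, TMM scaling, quasi-likelihood fit, 18 residual degrees of freedom, Benjamini-Hochberg over 11717 genes, threshold 0.05). Alternatives were DESeq2 1.42.0, its size factors in edgeR, no filter, only the groups compared, the second table, the replicate block, control-RNA scaling and leaving out each library. The fit was tested on simulated data. Figures used matplotlib 3.10.9. The genes and lists were chosen with earlier results of these data known. By rule, values per library are given for the 3 regulators and, in each role and each comparison with untreated cells, for the called genes with the highest and lowest fold change; other genes named with library values were chosen after their values were seen. For the further lists the highest and lowest called genes are named, except 1 gene that is not reported here.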

Additional observations from a re-analysis of the deposited data

Results flagged for a closer look

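A library was singled out where its gap to the nearest of its 4 exceeded Dixon's 95% critical value as a share of the group's range, a rule that chance meets in about 5% of groups. Among 246 pairs of a gene and a group, 20 met it (8.13%). S14 18 h replicate 1 stood off with Sgsh at 74.8 CPM, S14 18 h replicate 2 stood off with Atp6v0a1 at 242.5 CPM and S14 18 h replicate 3 stood off with Ctsc at 514.3 CPM. LPS 18 h replicate 3 stood off with Scarb2 at 201.9 CPM, untreated 18 h replicate 1 stood off with Atp6v0c at 2.13 CPM and untreated 18 h replicate 4 stood off with Mcoln1 at 111.8 CPM, Ppt1 at 197.6 CPM, Gusb at 753.4 CPM and Atp6ap1 at 606.2 CPM. S14 3 h replicate 1 stood off with Mitf at 161.8 CPM and Atp6v1h at 86.1 CPM, S14 3 h replicate 2 stood off with Cd63 at 1671.1 CPM, Ctss at 2280.6 CPM and Gusb at 340.6 CPM and LPS 3 h replicate 1 stood off with Cd68 at 1040.2 CPM and Mcoln1 at 44.4 CPM. LPS 3 h replicate 4 stood off with Lipa at 784.9 CPM, untreated 3 h replicate 1 stood off with Ppt1 at 104.1 CPM and untreated 3 h replicate 3 stood off with Atp6v1b2 at 724.9 CPM. Untreated 3 h replicate 4 stood off with Laptm5 at 1754.5 CPM.

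The S14 effect, as a log2 fold change against untreated cells, differed between 18 h and 3 h by edgeR's test of the difference for 11 genes. It was higher at 18 h for Cd63 (0.51), Ctsd (0.62), Ctsh (0.45), Ctsl (0.72), Ctsz (0.51), Tpp1 (0.30), Sgsh (1.25), Atp6v1d (0.35) and Atp6ap1 (0.40). It was lower at 18 h for Lamp2 (-0.30) and Atp6v0d2 (-0.93). The LPS effect, as a log2 fold change against untreated cells, differed between 18 h and 3 h by edgeR's test of the difference for 26 genes. It was higher at 18 h for Tfeb (3.05), Tfe3 (0.88), Ctsd (0.40), Ctsh (0.88), Ctsl (1.48), Ctsz (0.78), Hgsnat (1.183), Atp6v0b (0.60), Atp6v0d1 (0.34), Atp6v1b2 (0.28) and Atp6v1d (0.38). It was lower at 18 h for Lamp2 (-0.26), Scarb2 (-0.32), Laptm4a (-0.36), Laptm5 (-0.83), Mcoln1 (-1.19), Ctsa (-0.56), Ctsc (-0.59), Ctss (-0.49), Lipa (-0.60), Cln3 (-1.40), Gusb (-0.95), Naglu (-0.75), Man2b1 (-1.002), Atp6v0a1 (-1.37) and Atp6v0d2 (-3.68). Under control-RNA scaling the S14 differences above 0 were not called, and 14 genes were called lower (1 without untreated 18 h replicate 4). The LPS differences under that scaling are counted by role above. Of the S14 differences, those of Lamp2, Cd63, Ctsh, Tpp1 and Atp6v1d, and of the LPS differences those of Lamp2, Scarb2, Mcoln1, Atp6v0d1 and Atp6v1b2, lost their call without some single library.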

How the results depend on the processing

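A value was read as reversed where its sign differed and it was called in either fit compared. Of 360 values (40 genes in 9 comparisons), none reversed with DESeq2, with DESeq2 size factors in edgeR, without the filter on low counts, with only the groups compared, with the second table's reads or with the replicate block. LPS at 3 h lowered 7 genes with DESeq2 and with its size factors in edgeR, and raised 14 in a fit of only the groups compared, in which S14 at 18 h raised 6. Without the filter the S14 effect was lower at 18 h for 1 gene. With TCACGTG as the motif, 32.4% of the genes with a listed promoter held it. Leaving out single libraries gave 2 to 3 genes raised and 2 to 5 lowered by S14 at 3 h, 1 to 3 lower in untreated cells at 18 h, and 1 to 2 with a lower S14 effect at 18 h. The cause was not tested.

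The replicate numbers were also fitted as a replicate block, though 1 of 60 same-number correlations was over 0.1 (median 0.026) and nothing in the labels pairs them. The block lost no call and added 9, among them Lipa with S14 at 3 h (adjusted p = 0.00846), Ctss with S14 at 18 h (0.00877) and Gusb with LPS at 3 h (0.025), all in edgeR.

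Control-RNA scaling changed most, and the cause was not tested. It raised and lowered 0 and 31 genes with S14 at 18 h, 0 and 0 with S14 at 3 h and 5 and 2 with LPS at 3 h, and raised 1 with LPS at 18 h. S14 against LPS gave 3 and 5 at 18 h and 1 and 5 at 3 h, untreated cells 0 lower at 18 h, the S14 effect 0 and 14, and the LPS effect 1 higher. Without untreated 18 h replicate 4 as well, it gave 0 and 5 with S14 at 18 h, 6 and 10 with LPS at 18 h, 1 and 1 with S14 at 3 h and 2 lowered with LPS at 3 h. S14 then exceeded LPS for 6 genes at 18 h and 2 at 3 h, untreated cells had 0 lower at 18 h, the S14 effect gave 0 and 1, and the LPS effect 2 higher.

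Values that turned sign under control-RNA scaling and were called in either fit follow, as log2 fold changes. Sign changes of values called in neither fit are left out. For S14 at 18 h it gave Mitf -0.57, Lamp1 -0.82, Scarb2 -0.87, Cd63 -0.41, Laptm4a -0.89, Ctsb -0.89, Ctsc -0.47, Ctsd -0.45, Ctsh -0.39, Ctsl -0.52, Ctss -0.72, Ctsz -0.30, Tpp1 -0.81, Ppt1 -1.03, Gaa -0.89, Atp6v0b -0.82, Atp6v0d1 -0.93, Atp6v1b2 -1.06, Atp6v1d -0.69, Atp6v1h -0.72 and Atp6ap1 -0.62. For LPS at 18 h it gave Lamp2 -0.16, Laptm4a -0.39, Ctsd -0.38, Atp6v0b -0.47, Atp6v0d1 -0.43, Atp6v1d -0.12 and Atp6v1h -0.060. For LPS at 3 h it gave Tpp1 0.12, Man2b1 0.14, Atp6v0a1 0.13, Atp6v0b 0.041 and Atp6v1c1 0.15. For S14 against LPS at 18 h it gave Ctsd -0.076, Cln3 -0.059, Atp6v1a -0.095, Atp6v1b2 -0.073 and Atp6ap1 -0.031. Between the times in untreated cells it gave Atp6v0b 0.59, Atp6v0d1 0.81 and Atp6v1h 0.36. For the S14 effect at 18 h against 3 h it gave Cd63 -0.44, Cd68 -1.14, Ctsd -0.45, Ctsh -0.59, Ctsl -0.33, Ctsz -0.62, Tpp1 -0.81, Atp6v1d -0.71 and Atp6ap1 -0.62. For the LPS effect at 18 h against 3 h it gave Tfe3 -0.15, Ctsd -0.58, Ctsh -0.095, Ctsz -0.26, Atp6v0b -0.51, Atp6v0d1 -0.66, Atp6v1b2 -0.84 and Atp6v1d -0.60.

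By the same rule, fewer values turned sign without untreated 18 h replicate 4. For S14 at 18 h it gave Mitf -0.14, Cd63 -0.20, Ctsd -0.029, Ctsl -0.11, Atp6v0b -0.17, Atp6v1d -0.28 and Atp6ap1 -0.30. For LPS at 18 h it gave Laptm4a -0.014. For LPS at 3 h it gave Tpp1 0.12, Man2b1 0.14, Atp6v0a1 0.13, Atp6v0b 0.041 and Atp6v1c1 0.15. For S14 against LPS at 18 h it gave Ctsd -0.076, Cln3 -0.057, Atp6v1a -0.095, Atp6v1b2 -0.073 and Atp6ap1 -0.031. Between the times in untreated cells it gave Atp6v1h 0.053. For the S14 effect at 18 h against 3 h it gave Cd63 -0.24, Ctsd -0.024, Ctsh -0.19, Ctsz -0.056, Tpp1 -0.29, Atp6v1d -0.29 and Atp6ap1 -0.29. For the LPS effect at 18 h against 3 h it gave Ctsd -0.16, Atp6v0d1 -0.14, Atp6v1b2 -0.15 and Atp6v1d -0.18.

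Depth limits the genes with few reads, among them Tfeb with LPS at 3 h (23 reads) and Ctsk (892 reads in all). Without molecular identifiers, PCR copies cannot be told from separate molecules.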
